A study of Macaca mulatta with 12 samples.

Results

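Convergent clonotypes are T cell receptor beta chain (TRB) clonotypes in which the same V gene, J gene and CDR3 amino-acid sequence was carried by 2 or more different nucleotide sequences of 1 library. Groups were selected on the deposited sequences: productive rows of each post-infusion library were grouped by first V gene, first J gene and CDR3 amino acids, and a group was kept where at least one pair of its nucleotide sequences differed at 2 or more bases. This gave 329 convergent groups of 196870 amino-acid clonotypes in 8 post-infusion libraries, and 0 of 153 in 4 baseline libraries. Counted once per V gene, J gene and CDR3, the groups were 300 clonotypes. They were set against 193036 clonotypes with 1 nucleotide sequence, called single clonotypes here, and 3505 clonotypes whose sequences differed from each other by 1 base at most.

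The blood mononuclear cells came from rhesus macaques (Macaca mulatta) infused intravenously with apoptotic donor leukocytes (ADLs), made by fixing white cells of the donor with ethylcarbodiimide. The study's Cohort A was nondiabetic and not transplanted, each animal differed from its donor in MHC class I and shared 1 DRB allele, and the infusions, on days -7 and 1 around an intended transplant on day 0, were given under transient immunosuppression (anti-CD40 antibody 2C10R4, rapamycin, tocilizumab and etanercept). The days of infusion are those of the series text, while the study also names day 0 for the second infusion of this cohort. The libraries were day -5 (Amazo, Nebula and Rocket), day -4 (the same names), day 0 (Nebula), day +3 (Amazo) and 4 baseline libraries under other animal names, each library being 1 sample. There was no group given immunosuppression without ADLs among these libraries, so drug and infusion cannot be told apart. The tables list TRB clones alone, and the labelled cell source was not checked against other markers.

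The libraries did not group as labelled. By the Morisita-Horn index of nucleotide clonotypes, which is 0 for unrelated and 1 for identical repertoires, the 8 post-infusion libraries fell into 3 repertoires. Repertoire 1 held Amazo day -5, Rocket day -5, Rocket day -4 and Amazo day +3, repertoire 2 the 3 Nebula libraries, and repertoire 3 the library labelled Amazo day -4. The index was 0.765 to 0.977 over the 9 pairs within a repertoire and 3.53e-06 to 0.0116 over the 19 pairs between them. Comparisons that need an animal therefore use the repertoire, and the labelled pairs of days are given with and without the Amazo pair. Libraries of 1 repertoire are not independent animals. Total counts were 63 to 74 at baseline and 42695 (Nebula day -4) to 556954 (Rocket day -5) after infusion. A baseline library held 27 to 46 amino-acid clonotypes, and 0 of 153 allows a share of up to 1.96%, so a share of the post-infusion size was not detectable there.

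The beta chain gene is assembled in the thymus by joining a V, a D and a J segment, with bases trimmed from the segment ends and others added at the joints. Most amino acids have several codons, so separate joining events can give the same CDR3, the loop that contacts the peptide, through different nucleotides. This is called convergent recombination and is known for CDR3s that lie close to the germline segments and are found in many individuals. Separate joining events that give the same protein can thus be told apart by their nucleotides, where those differ.

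The groups that carried most sequences or most counts are shown first, since the findings turn on where their bases differ. In each set the bases in capitals differ from sequence 1 of the set, read 5′ to 3′ from the conserved cysteine codon to the phenylalanine codon that ends the CDR3. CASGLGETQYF (TRBV28, TRBJ2-5) and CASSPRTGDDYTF (TRBV7-3, TRBJ1-2) were the largest groups of repertoire 1.
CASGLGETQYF, sequence 1: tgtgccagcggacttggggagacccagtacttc
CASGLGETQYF, sequence 2: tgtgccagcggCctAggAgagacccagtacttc
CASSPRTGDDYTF, sequence 1: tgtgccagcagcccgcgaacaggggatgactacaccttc
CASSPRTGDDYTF, sequence 2: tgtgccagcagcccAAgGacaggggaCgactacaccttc
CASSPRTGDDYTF, sequence 3: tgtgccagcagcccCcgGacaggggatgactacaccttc

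A TRBV4-2/TRBJ2-2 clonotype of 15 residues had the most sequences of any, 7 over the 4 libraries of repertoire 1, and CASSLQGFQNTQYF (TRBV27, TRBJ2-4) followed with 6. The first 4 of each show that the changes sat at a few codons in the middle of the CDR3.
TRBV4-2/TRBJ2-2, sequence 1: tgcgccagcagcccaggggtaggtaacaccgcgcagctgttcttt
TRBV4-2/TRBJ2-2, sequence 2: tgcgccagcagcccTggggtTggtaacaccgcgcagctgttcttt
TRBV4-2/TRBJ2-2, sequence 3: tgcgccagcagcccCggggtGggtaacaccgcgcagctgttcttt
TRBV4-2/TRBJ2-2, sequence 4: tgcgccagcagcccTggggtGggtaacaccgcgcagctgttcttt
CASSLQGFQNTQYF, sequence 1: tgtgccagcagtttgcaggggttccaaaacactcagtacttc
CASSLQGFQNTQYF, sequence 2: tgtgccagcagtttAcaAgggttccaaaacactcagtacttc
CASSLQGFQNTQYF, sequence 3: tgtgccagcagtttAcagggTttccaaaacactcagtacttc
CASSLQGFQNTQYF, sequence 4: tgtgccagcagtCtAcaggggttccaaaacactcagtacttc

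From repertoires 2 and 3, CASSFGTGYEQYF (TRBV7-3, TRBJ2-7), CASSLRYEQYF (TRBV7-10, TRBJ2-7), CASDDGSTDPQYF (TRBV10-2, TRBJ2-3) and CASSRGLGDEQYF (TRBV4-2, TRBJ2-7) are shown for the range of differences, up to 7 bases between the sequences of the last. In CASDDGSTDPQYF and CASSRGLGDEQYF a serine was encoded by codons of both serine families.
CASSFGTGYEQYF, sequence 1: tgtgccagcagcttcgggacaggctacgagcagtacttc
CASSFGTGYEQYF, sequence 2: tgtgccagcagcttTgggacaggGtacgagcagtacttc
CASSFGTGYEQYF, sequence 3: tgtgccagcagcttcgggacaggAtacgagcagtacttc
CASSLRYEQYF, sequence 1: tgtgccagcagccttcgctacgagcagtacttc
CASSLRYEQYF, sequence 2: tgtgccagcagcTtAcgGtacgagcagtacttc
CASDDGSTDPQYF, sequence 1: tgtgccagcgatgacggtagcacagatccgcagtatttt
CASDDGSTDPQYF, sequence 2: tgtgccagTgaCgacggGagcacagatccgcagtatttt
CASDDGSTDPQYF, sequence 3: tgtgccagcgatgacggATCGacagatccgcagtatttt
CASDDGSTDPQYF, sequence 4: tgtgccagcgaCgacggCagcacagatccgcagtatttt
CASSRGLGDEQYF, sequence 1: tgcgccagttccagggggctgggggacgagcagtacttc
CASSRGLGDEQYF, sequence 2: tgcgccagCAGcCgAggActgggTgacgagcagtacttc

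The clonotypes convergent in 2 repertoires were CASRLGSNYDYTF (TRBV6-3, TRBJ1-2) and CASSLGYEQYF (TRBV5-1, TRBJ2-7), with 0 convergent in all 3 repertoires. A TRBV21-1/TRBJ1-1 clonotype of 16 residues is shown for contrast, because all of its other sequences lay 1 base from the most abundant one.
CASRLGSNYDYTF, sequence 1: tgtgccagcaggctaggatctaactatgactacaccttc
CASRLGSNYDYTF, sequence 2: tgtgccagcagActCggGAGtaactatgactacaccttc
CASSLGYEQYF, sequence 1: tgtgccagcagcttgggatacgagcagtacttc
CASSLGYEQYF, sequence 2: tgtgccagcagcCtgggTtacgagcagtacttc
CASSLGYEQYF, sequence 3: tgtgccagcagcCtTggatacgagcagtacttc
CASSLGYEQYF, sequence 4: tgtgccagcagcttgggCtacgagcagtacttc
TRBV21-1/TRBJ1-1, sequence 1: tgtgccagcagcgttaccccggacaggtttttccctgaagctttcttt
TRBV21-1/TRBJ1-1, sequence 2: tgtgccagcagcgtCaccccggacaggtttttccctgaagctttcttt
TRBV21-1/TRBJ1-1, sequence 3: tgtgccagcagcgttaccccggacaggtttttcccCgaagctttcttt
TRBV21-1/TRBJ1-1, sequence 4: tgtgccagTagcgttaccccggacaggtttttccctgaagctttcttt

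Every post-infusion library held convergent groups. There were 67 in Amazo day -5, 25 in Rocket day -5, 52 in Rocket day -4, 37 in Amazo day +3, 52 in Nebula day -5, 17 in Nebula day -4, 37 in Nebula day 0 and 42 in Amazo day -4. As a share of amino-acid clonotypes they ran from 0.0997% (95% Wilson interval 0.0623% to 0.160%) in Nebula day -4 to 0.209% (0.165% to 0.266%) in Amazo day -5. Nebula day -4 was also the library of lowest depth. With every library thinned to 40738 productive counts, the number fell to between 10.5 (Rocket day -5) and 22.9 (Nebula day -5), means of 20 draws, and the share to between 0.0997% and 0.129%. Equal total counts did not equalise the sequences sampled, since the most frequent count above 1 differed from 2 to 13 between the full libraries: the thinned libraries held 8971 amino-acid clonotypes in Rocket day -5, 14694 in Rocket day -4 and up to 18937 in Nebula day 0. All intervals and thinned values cover counting error only.

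**Figure D1:**
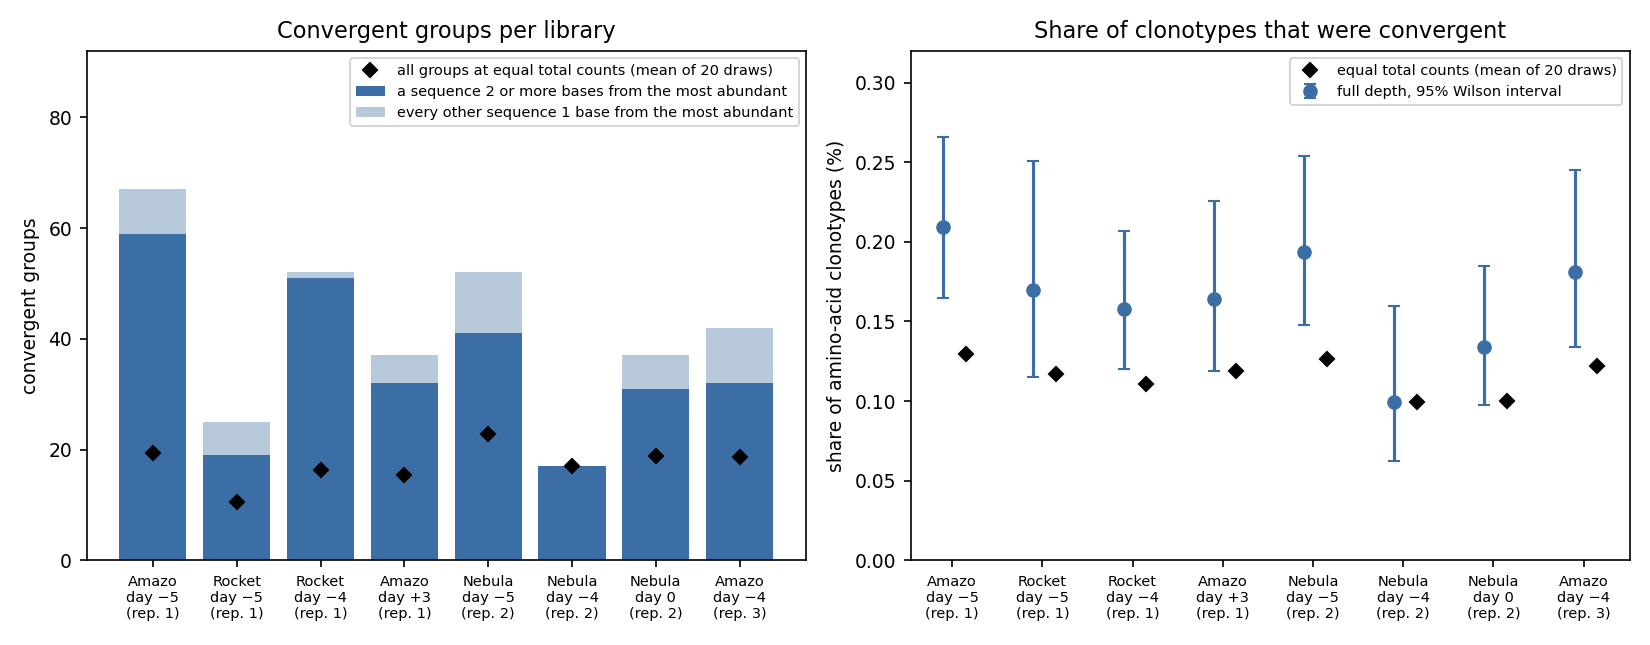
Convergent groups in the 8 post-infusion libraries, as a number (left, bars split by whether a sequence lay 2 or more bases from the most abundant one) and as a percentage of amino-acid clonotypes (right, circles with 95% Wilson intervals), with repertoire (rep.) under each name. Diamonds show the values at equal total counts, which ran from 10.5 to 22.9 groups and from 0.0997% to 0.129% of clonotypes.

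Most groups were small. Of the 329, 240 had 2 sequences, 79 had 3, 7 had 4, 2 had 5 and 1 had 6. The largest difference within a group was 2 bases in 174 groups, 3 in 91, 4 in 39, 5 in 16, 6 in 5, 7 in 1 and 8 in 3. The pair of clonotypes behind the 3 groups with 8 differing bases, named after their values were seen, was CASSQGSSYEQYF (TRBV4-3, TRBJ2-7) and a TRBV5-1/TRBJ1-5 clonotype of 15 residues found at 27 and 3 counts in Rocket day -4 and at 22 and 7 counts in Amazo day +3. In 282 groups at least 1 sequence lay 2 or more bases from the most abundant one, and such a sequence is called distant here. In the other 47 (14.3%) every further sequence lay 1 base from the most abundant, so that the pair 2 bases apart was formed by minor sequences.

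Groups with a distant sequence and groups with differences of 1 base from the most abundant sequence lay apart, also inside the rule. Among the 3505 groups just outside it, with differences of 1 base, the second sequence had 1 count in 92.9%, at a median of 11.1% of the most abundant, and 49.8% of the differing bases lay in the junction. The 174 groups just inside it, with a largest difference of 2 bases, were of both forms. In the 47 without a distant sequence, 87.2% had their largest further sequence at 1 count, the median was 12.5% of the most abundant, and 50.5% of 95 differing bases lay in the junction, values close to those outside the rule. In the 127 with one, 17.3% had their largest distant sequence at 1 count, the median was 55.6% of the most abundant, and 92.8% of differing bases lay in the junction. The 155 groups with 3 or more differing bases had 7.10% at 1 count, a median of 54.5% and 98.3% in the junction. The junction is the stretch between the end of the V and the start of the J segment as the clone caller aligned them, so its limits moved with the sequences themselves. The TRBV21-1/TRBJ1-1 clonotype printed above had 18 counts for sequence 1 and 1 count for each of the others.

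Between the distant sequences and the most abundant ones of the 282 groups, 96.6% of 913 differing bases lay in the junction, 1.75% in the V part and 1.64% in the J part. With every further sequence of all 329 groups counted, it was 92.3%, 3.52% and 4.20% of 1023 bases. The junction made up 23.8% of CDR3 bases in convergent groups and 29.7% in single clonotypes, by the segment ends of the most abundant or only sequence. A differing base was placed by the wider limits of both sequences compared, so these shares are not a like background for it. For the distant sequences the junction's share of differing bases was 96.9%, 96.2% and 96.0% in repertoires 1, 2 and 3. By codon position, 80.9% of the 913 differing bases stood at position 3, 13.8% at position 1 and 5.26% at position 2, a pattern that the identity of the amino acids in the rule largely fixes. Of the 282 groups with a distant sequence, 198 (70.2%) had sequences with different V or J end points, and 87 (30.9%) had different D gene assignments, including none. TRBD1 and TRBD2 are the D segments of the locus.

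The sequences of a group were often of like abundance, with low counts in most. In 264 of the 282 groups (93.6%) the largest distant sequence had at least 10% of the counts of the most abundant one. The most abundant one had a median of 11 counts. Where it had 10 or fewer, 1 count already reached 10%, so low counts partly fix this share. The median was 55.6% of the most abundant one. The medians per library ran from 50% in Rocket day -4 and Nebula day -4 to 72.2% in Rocket day -5. In 33 groups the distant sequence was seen at 1 count only. The median count of the largest distant sequence was 4 in Amazo day -5, 13 in Rocket day -5, 3 in Rocket day -4, 5 in Amazo day +3, 11 in Nebula day -5, 2 in Nebula day -4, 6 in Nebula day 0 and 9 in Amazo day -4. The most frequent count above 1 among all productive sequences was 4, 13, 3, 6, 12, 2, 7 and 9 in the same order. In each library these values lay within 1 count of each other.

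**Figure D2:**
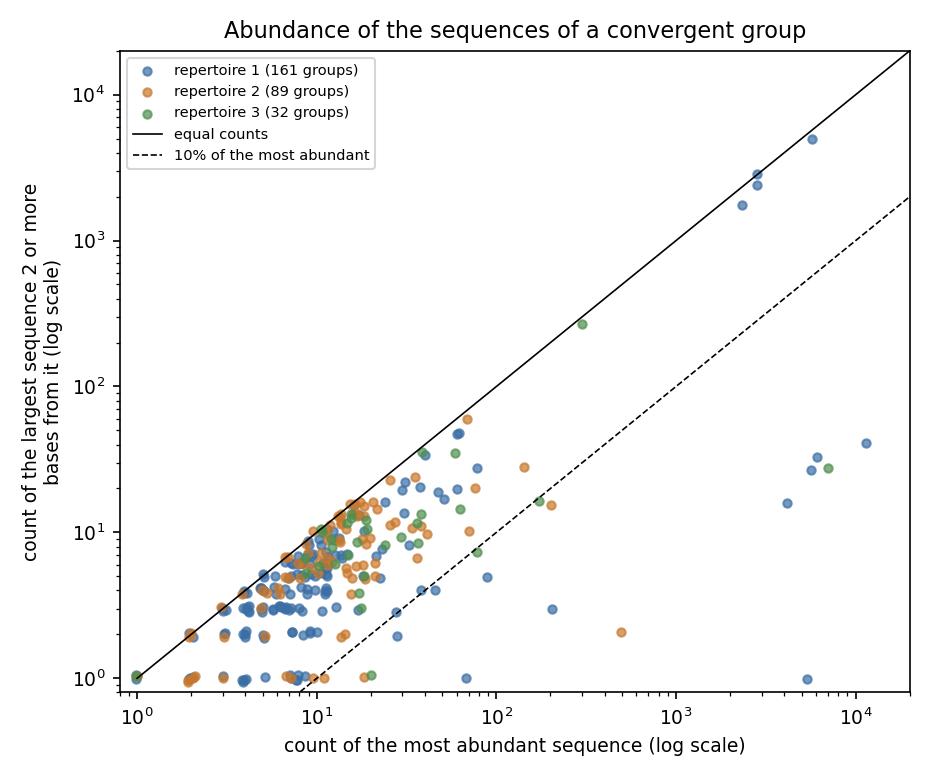
Count of the most abundant sequence of a group (x) against the largest sequence 2 or more bases from it (y), both on log scales, for 282 groups in 8 libraries, with points shifted slightly to show ties. Of these, 264 lie on or above the dashed line of 10%, and the 6 points below it at the far right are a TRBV7-3/TRBJ1-2 clonotype in 4 libraries, a TRBV5-1/TRBJ1-2 clonotype and a TRBV28/TRBJ1-5 clonotype.

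Convergent groups held a small share of the library outside a few large clonotypes. Of productive counts they held 5.28% in Amazo day -5, 4.40% in Rocket day -5, 3.70% in Rocket day -4, 4.22% in Amazo day +3 and 2.34% in Amazo day -4, and 0.608%, 0.295% and 0.277% in Nebula day -5, day -4 and day 0. Repertoire 2 thus lay below all libraries of the other repertoires. Without the largest group of each library, 1.97% to 3.55% was left in repertoire 1, 0.245% to 0.486% in repertoire 2 and 0.520% in repertoire 3. Of the 329 groups, 23 reached 100 counts, from 14 clonotypes, and 87 stayed under 10 counts. The median total count of a group was 5 to 31 over the libraries, against 2 to 13 for single clonotypes, though a group sums several sequences by construction. In these bulk RNA libraries more cells of a clone and more TRB transcript per cell cannot be told apart.

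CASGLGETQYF, of 11 residues, had 2 sequences 3 bases apart, and both were abundant. Sequence 1 had 2889 counts in Amazo day -5, 5632 in Rocket day -5, 2254 in Rocket day -4 and 2906 in Amazo day +3. Sequence 2 had 2771, 5094, 1825 and 2556 in the same libraries. The second was 95.9%, 90.4%, 81.0% and 88.0% of the first, and together they made 1.69%, 2.02%, 1.64% and 1.88% of productive counts. Outside repertoire 1 each was seen at 1 count in 1 library, sequence 1 in Amazo day -4 and sequence 2 in Nebula day -5.

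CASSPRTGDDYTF was of another make-up, with 1 dominant sequence. Sequence 1 had 5764, 11636, 4269 and 6041 counts in the same 4 libraries. Sequences 2 and 3, 4 and 2 bases away, had 28 and 16, 39 and 21, 15 and 11, and 31 and 32 counts. The largest of them was 0.335% to 0.530% of sequence 1, and all 3 were present in all 4 libraries. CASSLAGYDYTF (TRBV5-1, TRBJ1-2), named after its values were seen, had the same form in Amazo day -4, at 6700 and 27 counts. A TRBV28/TRBJ1-5 clonotype of 15 residues, likewise, had 5090 counts and 1 count in Amazo day -5, and alone made 1.52% of that library's productive counts.

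The clonotypes with most sequences were of middle abundance and changed their make-up from library to library. Of the TRBV4-2/TRBJ2-2 clonotype, sequence 1 had 49, 38, 15 and 39 counts in the 4 libraries, in the order used above. Sequence 2 had 16 and 35 counts in the day -5 libraries and 0 in the others, and sequence 3 had 11 and 30 there and likewise 0. Sequence 4 had 16, 0, 7 and 10 counts. For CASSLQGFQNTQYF, sequence 1 had 47, 64, 81 and 61 counts, sequence 2 had 0, 29, 26 and 49, sequence 3 had 17, 48, 0 and 9, and sequence 4 was seen in Amazo day -5 at 19 counts. Sequence 1 of both was thus found in all 4 libraries, and each of the others was at 0 in at least 1 of them. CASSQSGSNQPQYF (TRBV23-1, TRBJ1-5) had 5 sequences in repertoire 1, of which 10, 10 and 7 counts were in Amazo day +3, and 1 sequence each in Rocket day -4 (4 counts) and Amazo day -5 (3 counts).

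**Figure D3:**
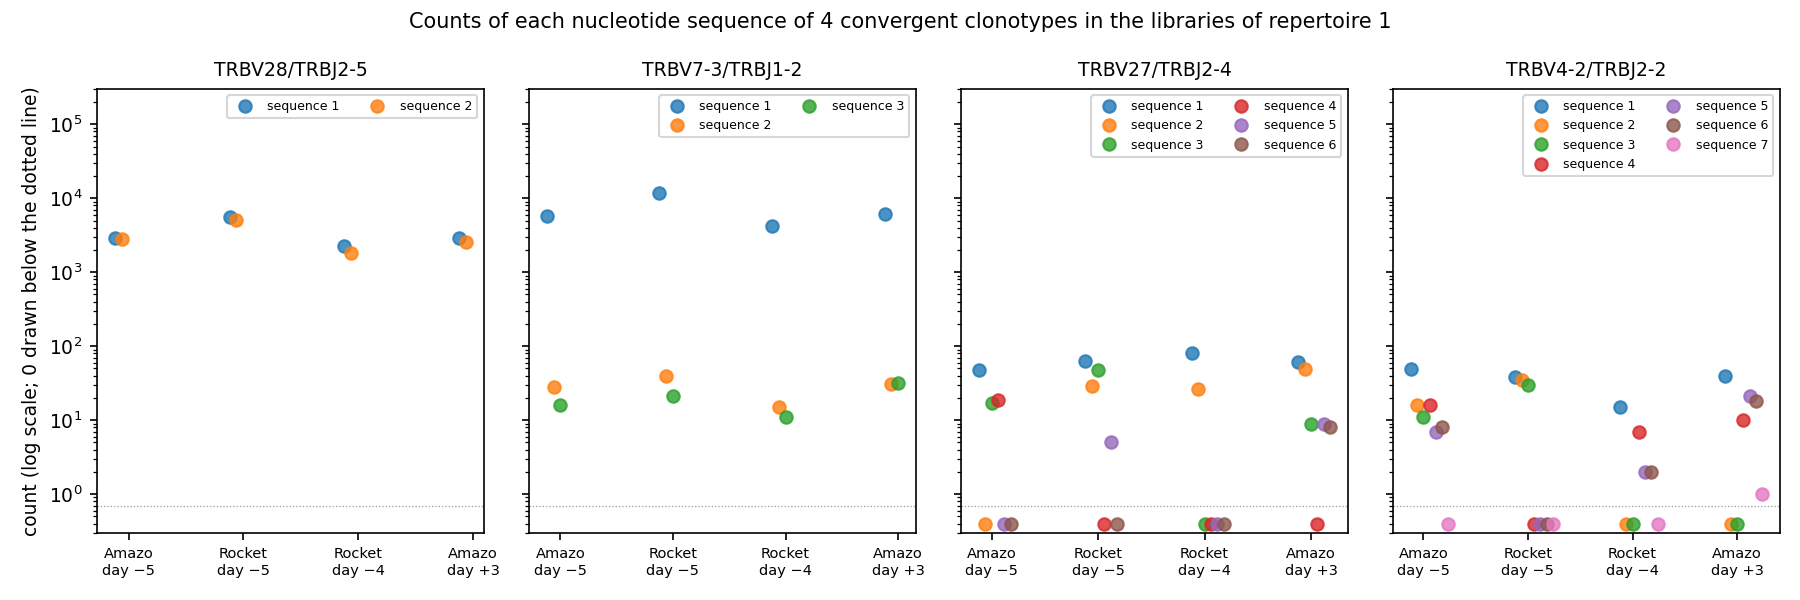
Counts (y, log scale, with 0 drawn below the dotted line) of each nucleotide sequence of 4 convergent clonotypes in the 4 libraries of repertoire 1 (x), points shifted sideways for legibility. Both sequences of TRBV28/TRBJ2-5 lie between 1825 and 5632 counts in every library, while each further sequence of TRBV27/TRBJ2-4 and TRBV4-2/TRBJ2-2 is at 0 in at least 1 library.

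The largest group of repertoire 2 had 487 counts, in Nebula day -5, fewer than the largest group of either other repertoire. It was not among the groups named by the rules, which follow. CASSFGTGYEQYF had sequence 1 at 63, 15 and 55 counts in Nebula day -5, day -4 and day 0, and sequence 2 at 65, 1 and 0. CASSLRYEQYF, of 11 residues, had 17 and 22 counts for sequence 1 and 17 and 15 for sequence 2 in Nebula day -5 and day 0, and 0 for both in day -4. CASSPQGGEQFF (TRBV14, TRBJ2-1) had 3 sequences at 144, 30 and 28 counts in Nebula day -5 and at 5, 3 and 3 in day -4, and in day 0 the first 2, 1 base apart, at 42 and 20. A TRBV3-4/TRBJ2-7 clonotype of 15 residues had 4 sequences at 15, 16, 15 and 11 counts in Nebula day -5 and 3 of them at 6, 7 and 7 in day 0.

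In repertoire 3, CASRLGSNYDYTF had the most counts in a distant sequence, with 309 and 268 counts for sequences 5 bases apart, while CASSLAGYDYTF (6700 and 27) had more in total. The 2 sequences of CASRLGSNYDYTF were present in Amazo day -5, a library of repertoire 1, at 2 and 10 counts. They were not seen in the other 6 libraries. Amazo day -5 and Amazo day -4 had the highest index of all pairs between repertoires, 0.0116. Whether this bears on the shared sequences was not tested. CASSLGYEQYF was convergent in Amazo day -5 (9 and 6 counts) and in Nebula day 0 (13 and 9 counts), with 4 different sequences, so that no sequence was shared by the libraries. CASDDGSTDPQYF had 4 sequences at 15, 12, 10 and 8 counts, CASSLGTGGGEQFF (TRBV12-2, TRBJ2-1) 3 at 175, 17 and 14, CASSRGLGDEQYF 2 at 59 and 37, and a TRBV5-1/TRBJ2-6 clonotype of 15 residues 2 at 40 and 35.

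Convergent CDR3s were shorter than single ones. Mean length was 13.7 ± 0.0531 residues in convergent groups and 14.5 ± 0.0393 in single clonotypes (SD over n = 3 repertoires), and the difference was -0.76, -0.74 and -0.80 residues in repertoires 1, 2 and 3. All 8 libraries went the same way, by -1.07 to -0.53 residues. The mean difference was -0.77 ± 0.0280 (SD, n = 3, exact two-sided sign-flip permutation test, p = 0.25, the smallest p that 3 repertoires allow). It was -0.61 within classes of total count that held at least 20 clonotypes of each kind. In the 3505 clonotypes with sequences 1 base apart the mean was 14.5 residues, as in single clonotypes.

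**Figure D4:**
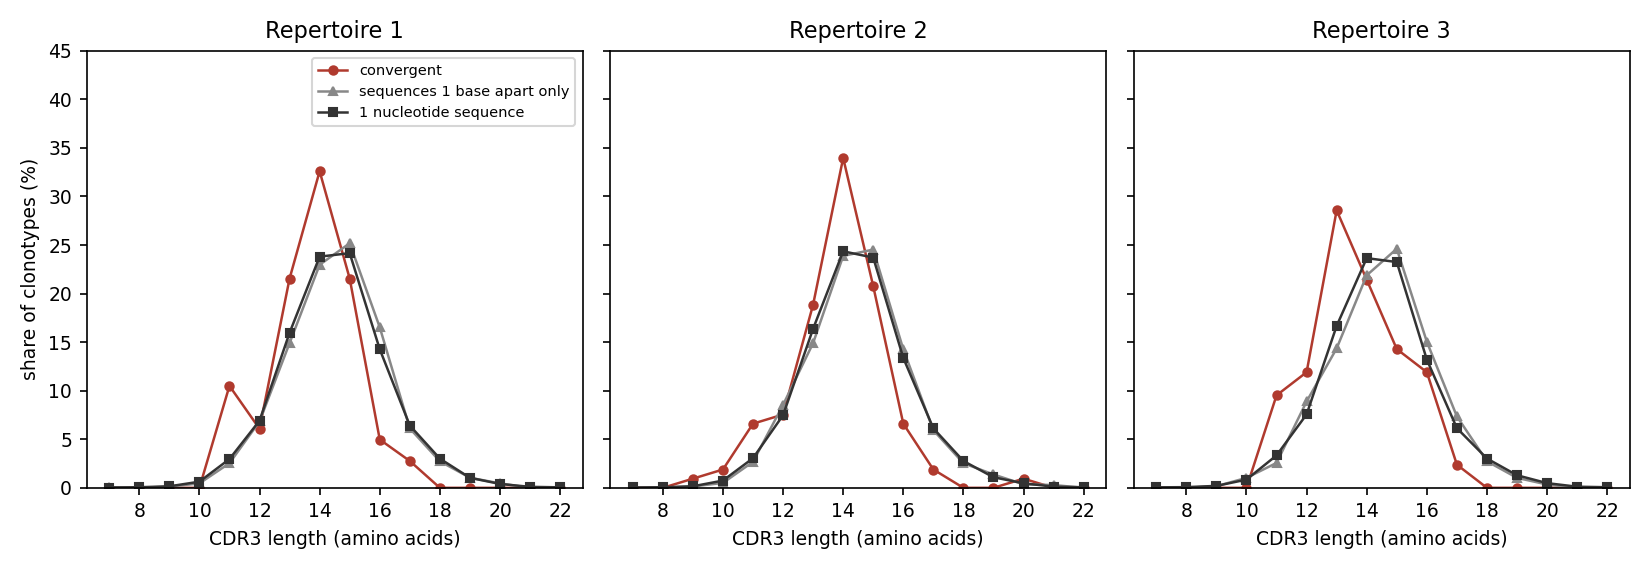
Share of clonotypes (y, %) by CDR3 length (x, amino acids) in the 3 repertoires, pooled over their libraries, for convergent groups, clonotypes with sequences 1 base apart and clonotypes with 1 nucleotide sequence. CDR3s of 16 or more residues made 7.73%, 9.43% and 14.3% of convergent groups against 25.3%, 24.0% and 24.4% of single clonotypes.

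Long CDR3s were the class that differed most. Those of 16 or more residues made 14 of 181 convergent groups (7.73%) in repertoire 1, 10 of 106 (9.43%) in repertoire 2 and 6 of 42 (14.3%) in repertoire 3, against 25.3%, 24.0% and 24.4% of single clonotypes. Those of 12 or fewer residues made 16.6%, 17.0% and 21.4% against 10.8%, 11.5% and 12.1%.

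The shorter CDR3s also had fewer bases assigned to no segment. Where no D segment was assigned, any bases that came from it fall in this number, so it is not a count of added bases alone. Bases assigned to no segment numbered 5.06 ± 0.920 per most abundant sequence of a convergent group and 7.56 ± 0.294 per single clonotype (SD, n = 3 repertoires), and the difference was -2.61, -3.22 and -1.66 in repertoires 1, 2 and 3. The whole junction, with the D segment, was 9.93 ± 0.185 against 13.2 ± 0.158 bases. Clonotypes with sequences 1 base apart had 7.48 ± 0.330 bases assigned to no segment. No D segment was assigned in 28.9%, 28.5% and 47.6% of convergent groups and in 24.1%, 26.3% and 26.05% of single clonotypes. In libraries the difference in this share ran from -4.01 to 21.6 percentage points, so its direction was not common to all.

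Glycine, which D segments encode in several frames, made 35.0%, 39.5% and 23.3% of junction residues in convergent groups of repertoires 1, 2 and 3 and 25.8%, 25.1% and 25.5% in single clonotypes, and was thus not higher in repertoire 3. Leucine, arginine and serine, the residues with the most codons, made 28.5%, 20.7% and 26.5% against 23.3%, 24.0% and 24.0%. The mean number of codons per junction residue was 4.03 ± 0.0918 against 3.88 ± 0.0168. The difference was 0.27, 0.08 and 0.08 codons in the 3 repertoires and ran from -0.24 (Nebula day -4) to 0.39 (Rocket day -4) in libraries, so its direction was not common to all.

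For V genes, shares among convergent groups were set beside shares among single clonotypes. The genes named below had the highest and lowest ratios, so they are extremes by choice. The 300 clonotypes used 43 V and all 13 J genes. Among 35 V genes with at least 1% of single clonotypes, 3 were higher in convergent groups in all 3 repertoires. Of the 11 that were lower in all 3, 9 had 0 of the 42 groups of repertoire 3, so the number in that direction rests largely on empty cells. TRBV5-1 made 9.39%, 14.2% and 11.9% of convergent groups against 5.78%, 5.22% and 6.12% of single clonotypes. The ratio was 2.07 from 37 groups of 35 clonotypes, taken, as for all genes, between the means over repertoires. TRBV4-2 made 8.84%, 6.60% and 7.14% against 4.01%, 2.87% and 3.96%, a ratio of 2.08 from 26 groups of 22 clonotypes. TRBV5-6 had a ratio of 2.55 from 9 groups of 7 clonotypes, with 46.7% of its rows assigned to more than 1 V gene. TRBV28 had a ratio of 2.61 from 13 groups of 9 clonotypes, was absent from the groups of repertoire 3, and counted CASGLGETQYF in 4 libraries. At the other end TRBV3-1, TRBV7-6, TRBV12-3 and TRBV19 had 1 group each, with ratios of 0.113, 0.143, 0.159 and 0.163. With 1 group each these ratios carry little weight, and 74.8% of TRBV12-3 rows had more than 1 V gene. No test was made of V or J use.

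Ratios of J genes spanned a narrower range. TRBJ2-1 made 10.5%, 14.2% and 19.0% of convergent groups, a ratio of 1.37 to single clonotypes from 42 groups, followed by TRBJ2-5 (1.24, 38 groups) and TRBJ1-2 (1.23, 29 groups), each higher in 2 of 3 repertoires. TRBJ1-3 (0.487, 7 groups) and TRBJ2-4 (0.555, 21 groups) were lower in all 3 repertoires. TRBJ1-6 (0.582, 9 groups) was lower in 2 of 3.

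Convergent clonotypes were found again more often than single ones. Over 18 ordered pairs of libraries of 1 repertoire, 16.2% to 56.0% of convergent groups were present in the other library, matched on segments and CDR3 protein sequence, against 4.77% to 11.6% of single clonotypes, and the convergent share was higher in 18 of 18. Means were 35.7% against 7.60% in repertoire 1 and 31.9% against 6.53% in repertoire 2, a difference of 28.1 and 25.3 percentage points (mean 26.7 ± 1.96, SD, n = 2, exact two-sided sign-flip permutation test, p = 0.5, the smallest p that 2 repertoires allow). The lowest pair was 6 of 37 groups of Nebula day 0 in Nebula day -4 (95% Wilson interval 7.65% to 31.1%) and the highest 14 of 25 groups of Rocket day -5 in Amazo day -5 (37.1% to 73.3%). For clonotypes with sequences 1 base apart the means were 10.5% and 10.9%.

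A clonotype with more counts is more often found again, and convergent groups had more counts. A convergent group also had 2 or more sequences through which it could be found, where a single clonotype had 1. The rule fixes this, and classes of count do not remove it. Within classes of total count with at least 20 clonotypes of each kind, the mean difference was 15.7 percentage points. These classes were 4 to 9 and 10 to 99 counts in repertoire 1 and 10 to 99 counts in repertoire 2. At 10 to 99 counts, 36.8% of 315 convergent and 17.2% of 55041 single clonotype-library pairs were found again in repertoire 1, and 25.3% of 158 against 8.43% of 50590 in repertoire 2. At 100 or more counts 45 of 45 and 10 of 10 convergent pairs were found again, against 99.6% and 95.5% of single clonotypes. The 45 pairs repeat a few clonotypes, of which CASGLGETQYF and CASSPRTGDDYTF each entered from 4 libraries. A nucleotide sequence not seen in the first library was among those found for 0% to 23.1% of convergent groups and 0.227% to 0.526% of single clonotypes.

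The nucleotide sequences themselves can be followed as well. Of distant sequences at 4 to 9 counts, 16.7% of 240 were found in another library of repertoire 1 and 14.1% of 78 in repertoire 2, against 4.99% and 4.94% of single sequences in that class. At 1 count, distant sequences were found in 3 of 69 trials (4.35%) and 2 of 24 (8.33%), single sequences in 2.08% and 2.98%. Second sequences 1 base from a more abundant one, at 1 count, were found in 2 of 4260 trials (0.0469%) and 5 of 2570 (0.195%). At 1 count, second sequences 1 base away were thus found less often than single sequences in both repertoires. Above 1 count the direction differed between classes. At 4 to 9 counts they were found in 11.6% of 129 trials in repertoire 1 and 3.03% of 66 in repertoire 2, and at 2 to 3 counts in 4.44% of 180 and 0.962% of 104, where single sequences were found in 3.50% and 5.41%. At 10 to 99 counts it was 13.3% of 30 and 34.6% of 26, against 17.0% and 8.23% of single sequences. The values for distant sequences at 1 count rest on 5 finds in all, and none of these shares was tested.

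Few groups were convergent in several libraries. In repertoire 1, 149 of 160 clonotypes were convergent in 1 library, 5 in 2, 2 in 3 and 4 in all 4, the last being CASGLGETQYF, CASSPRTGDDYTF, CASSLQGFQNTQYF and the TRBV4-2/TRBJ2-2 clonotype. As clonotypes, whether convergent or not, 16 (10.0%) were detected in all 4 libraries and 89 in 1. In repertoire 2, 94 of 100 were convergent in 1 library and 6 in 2, and 16 were detected in all 3. For single clonotypes no like count is given, so these numbers have no background here.

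**Figure D5:**
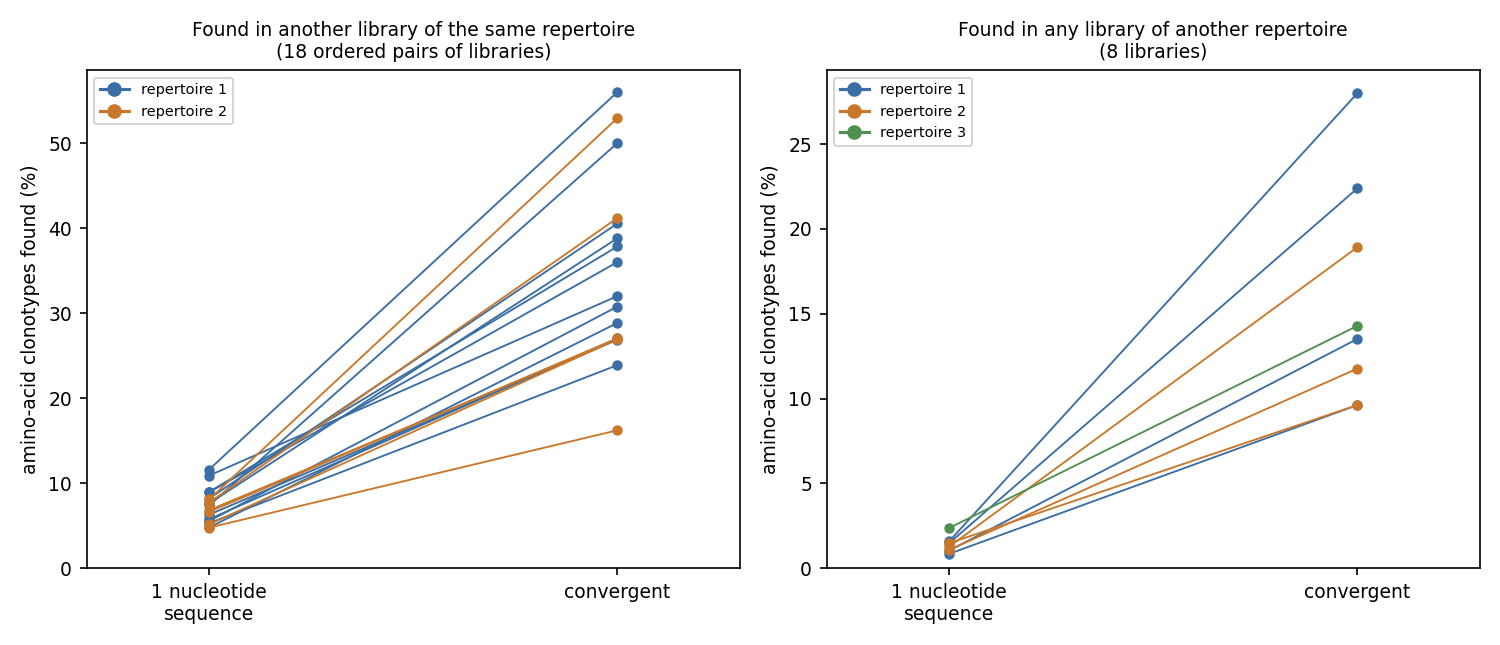
Share of amino-acid clonotypes (y, %) with 1 nucleotide sequence (left points) and of convergent groups (right points) found in another library of the same repertoire (left panel, 1 line per ordered pair of 18) or in any library of another repertoire (right panel, 1 line per library of 8). Every line rises to the right, from 4.77% to 11.6% up to 16.2% to 56.0% on the left and from 0.844% to 2.36% up to 9.62% to 28.0% on the right.

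Convergent clonotypes were also more often seen in another repertoire, where they again had 2 or more sequences to be found through and single clonotypes 1. The share was 22.4% in Amazo day -5, 28.0% in Rocket day -5, 9.62% in Rocket day -4, 13.5% in Amazo day +3, 9.62% in Nebula day -5, 11.8% in Nebula day -4, 18.9% in Nebula day 0 and 14.3% in Amazo day -4. For single clonotypes it was 0.844% to 2.36%, a ratio of 6.04 to 17.8. The mean difference was 13.7 ± 2.95 percentage points (SD, n = 3 repertoires, exact two-sided sign-flip permutation test, p = 0.25, the smallest possible), with 17.2, 12.2 and 11.9 in repertoires 1, 2 and 3. At 10 to 99 counts the shares were 16.2%, 15.2% and 11.4% of convergent groups against 1.31%, 1.48% and 2.11% of single clonotypes.

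Part of this presence was the identical nucleotide sequence at low count, as for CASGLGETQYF above. Counting a clonotype as found only through a sequence absent from its own library, an alternative added after the values were seen, gave 13.4%, 4.00%, 3.85%, 5.41%, 7.69%, 11.8%, 18.9% and 4.76% of convergent groups in the order of the preceding paragraph. For single clonotypes it gave 0.501% to 0.967%. The mean difference was 7.31 ± 4.24 percentage points and stayed positive in each repertoire. Of 15 groups of 100 or more counts in repertoire 1, 12 were seen in another repertoire and 0 through a new sequence. These 15 count a clonotype once per library, and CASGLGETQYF and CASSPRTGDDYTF are each among them in 4 libraries. Whether traces of 1 library reached others was not tested.

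Day -4 was compared with day -5 to ask whether the groups moved between days 2 and 3 after the first infusion. Libraries of day -5 held 48.0 ± 21.3 groups and those of day -4 held 37.0 ± 18.03 (SD, n = 3), a change of -11.0 ± 33.3 (exact two-sided sign-flip permutation test over labelled pairs, p = 0.75). Without the Amazo pair, whose libraries belong to different repertoires, the change was -4 groups. Their share of clonotypes was 0.191% ± 0.0200 and 0.146% ± 0.0419, lower at day -4 in 3 of 3 pairs (p = 0.25 by the same exact test, its smallest value). The change in share was -0.0447 percentage points, -0.0530 without the Amazo pair, and -0.0134 with all libraries thinned to equal total counts. The share of productive counts was 3.43% ± 2.48 and 2.11% ± 1.71, also lower in 3 of 3 (exact p = 0.25), with a change of -1.32 percentage points, or -0.505 without the Amazo pair. None of these differences can pass a threshold of 0.05 with 3 pairs. The labelled pairs are also not 3 independent animals, since Amazo day -5 and both Rocket libraries belong to 1 repertoire. The 2 pairs without Amazo allow no p below 0.5 by the sign-flip test. Day 0 and day +3 had 1 library each and baseline had 0 groups, so no further comparison was made.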

How the data were processed

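TRB transcripts of 12 blood libraries were measured. Per the labels and the study's methods, polyadenylated RNA was reverse transcribed with a barcoded template-switch primer, the VDJ region was enriched by PCR and read on a MiSeq, reads were trimmed with Trimmomatic, and clones were assembled with MiXCR at default settings against known rhesus TRB segments (versions and genome build are not given in the sources used here). Counts were used as deposited, whole numbers without normalization, 1 row per CDR3 nucleotide sequence. The deposited fraction is that count over the file's total. The deposited score minQualCDR3 is the lowest base quality of the CDR3, with a median of 38 over the distant sequences of the groups. The authors describe a clone threshold of 0.5% and merging by barcode. The post-infusion files hold clones below that threshold and no barcodes, so counts may include PCR copies and every interval covers counting error only.

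Productive rows (in frame, no stop codon) were grouped by first V gene, first J gene and CDR3 amino acids, and bases were compared position by position. Repertoires were sets of libraries with a Morisita-Horn index of 0.5 or more. Values per library were averaged within a repertoire and tested over repertoires, and days were tested over labelled pairs, by exact sign-flip permutation tests, where the animal name gives the pair. The grouping was tested on simulated data. Groups named were, per repertoire, the 3 with most sequences and the 3 with most counts in distant sequences, plus the 6 convergent in most repertoires, and the V and J genes with the highest and lowest ratios. The members and lists were chosen with earlier results of these data known. Depth was 63 to 556954 counts per library. Alternatives were equal total counts (20 draws), count minimums, other numbers of differing bases, other groupings, merging of near copies, count classes, no replicate block and leaving out libraries. Chromosome positions of segments were not used here. Python 3.11.15, numpy 2.4.6, pandas 2.3.3 and matplotlib 3.10.9 were used.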

Additional observations from a re-analysis of the deposited data

Results flagged for a closer look

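The number of convergent groups moved in opposite directions between the labelled pairs of days. From day -5 to day -4 it changed by 27 groups in Rocket, by -25 in Amazo and by -35 in Nebula, and the difference between animals was not tested. Productive counts went from 530778 to 248712 in Rocket and from 399629 to 40738 in Nebula, and the Amazo libraries belong to different repertoires. Thinned to equal total counts, which left different numbers of clonotypes, the numbers were 10.5 and 16.3 groups in Rocket, 19.5 and 18.7 in Amazo, and 22.9 and 17.0 in Nebula.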

How the results depend on the processing

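The number of groups, 329 over the 8 post-infusion libraries, depended most on the rule. It was 139 at equal total counts, 72 with at least 10 counts per sequence, 155 for differences of 3 or more bases, 3834 for 1 or more, and 1553 when grouped by CDR3 amino acids alone, without V and J genes. Without each library in turn the mean per library was 37.4 to 44.6, against 41.1. Grouping by amino acids alone reversed the changes from day -5 to day -4 in number (13) and in share of clonotypes (0.0510 percentage points). Leaving out each replicate gave changes of -30.0 to 1.00 groups, positive without Nebula, of -0.0611 to -0.0201 percentage points of clonotypes and of -1.82 to -0.505 percentage points of counts. Without the replicate block, that is unpaired, the same changes of -11.0 groups, -0.0447 and -1.32 percentage points had p = 0.6, p = 0.2 and p = 0.5 by exact permutation, where the smallest possible is 0.1. As means over repertoires, the differences in length, in persistence and in presence elsewhere kept their direction under every alternative run. Leaving out each library gave -0.80 to -0.72 residues, 23.3 to 29.1 and 12.7 to 14.7 percentage points. With differences of 1 base admitted these means shrank to -0.03 residues, 5.98 and 1.04 percentage points. The length difference was then positive in Rocket day -5 (0.0730), Nebula day 0 (0.0642) and Amazo day -4 (0.00212). It was negative in the other libraries. At 10 or more counts per sequence, presence elsewhere was negative in Rocket day -4 (-0.601), Amazo day +3 (-0.504) and Nebula day 0 (-0.442). It was positive in the others, except that Nebula day -4 had 0 groups. Added after the values were seen, keeping only groups with a distant sequence gave 282 groups, -0.88 residues, 30.3 and 16.5 percentage points.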
